A study of Mus musculus with 4 samples.

Results

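Small nucleolar RNA host genes are long noncoding transcripts whose introns carry small nucleolar RNAs. Of 8 such mouse genes sought (Gas5, Snhg1, Snhg3, Snhg5, Snhg6, Snhg8, Snhg12 and Zfas1), 2 could be measured as genes, Gas5 and Snhg5, among 19938 genes that had a probe set annotated with exactly 1 symbol. A probe set is the group of array probes that share 1 value. Gas5 had 4 such probe sets, and the one kept was chosen by its mean intensity over the 4 arrays, the highest of the 4. Snhg8 was named only on 1 probe set that it shares with Snora24, the small nucleolar RNA inside it. No probe set in the annotation used here was named for the other 5 hosts, and for 4 of them (Snhg1, Snhg3, Snhg6 and Snhg12) only the small nucleolar RNAs inside the gene were measured. Zfas1 has no value here.

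The arrays held total RNA of regulatory T (Treg) cells, the Foxp3-expressing CD4 lymphocytes that hold immune responses in check. Wild-type (WT) cells came from Cyld+/+ Foxp3-yfp-cre mice and knockout (KO) cells from mice with Cyld fl/fl and the same Foxp3-yfp-cre allele, both C57Bl6 and 6 to 8 weeks old, with 2 arrays per genotype. Both genotypes carry the Cre recombinase with yellow fluorescent protein (YFP) under Foxp3, so Cyld is removed only where Foxp3 is expressed, and YFP+ cells were sorted. Cyld encodes a deubiquitinase that limits NF-kB signalling. The labels name the spleen in one field and spleen with lymph nodes in another, and nothing in them says that replicates came from separate mice, so p-values measure only the spread between these samples, which may be technical.

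A host transcript is spliced, and the small nucleolar RNA is then trimmed out of the excised intron, so both products come from 1 primary transcript. Box C/D small nucleolar RNAs (Snord genes) guide methylation of the ribose in ribosomal RNA, and box H/ACA members (Snora genes) guide pseudouridylation or, like Snora73, help to process the ribosomal RNA precursor. Many spliced hosts begin with a 5′ terminal oligopyrimidine tract, as ribosomal protein mRNAs do, and several are degraded during translation by nonsense-mediated decay, so that the level of the spliced host depends on its decay as well as its synthesis. Gas5 is known for accumulating in growth-arrested cells.

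Starts of Gas5, Snhg12, Snhg3, Snhg5, Snhg1 and Snhg8 are shown because the pyrimidine tract is the sequence feature that the family is known for. Each line gives 40 bases before and 40 bases from the annotated start onwards, from RefSeq on GRCm38.p6, and capitals mark matches to CTTTC or CTTTT, or to the related CTTCC or CTTCT, within 20 bases of the start on the strand of the gene.
Gas5, chr1:161035126-161035205, + strand: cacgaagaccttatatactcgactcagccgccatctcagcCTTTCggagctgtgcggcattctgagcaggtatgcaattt
Snhg12, chr4:132308638-132308717, + strand: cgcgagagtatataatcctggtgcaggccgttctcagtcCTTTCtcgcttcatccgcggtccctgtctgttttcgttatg
Snhg3, chr4:132353647-132353726, - strand: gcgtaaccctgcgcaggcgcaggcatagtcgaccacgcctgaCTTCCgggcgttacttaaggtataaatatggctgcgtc
Snhg5, chr9:88522858-88522937, - strand: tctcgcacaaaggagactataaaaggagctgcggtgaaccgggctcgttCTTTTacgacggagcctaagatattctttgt
Snhg1, chr19:8723447-8723526, + strand: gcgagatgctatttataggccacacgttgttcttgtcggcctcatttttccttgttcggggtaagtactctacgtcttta
Snhg8, chr3:123508297-123508376, - strand: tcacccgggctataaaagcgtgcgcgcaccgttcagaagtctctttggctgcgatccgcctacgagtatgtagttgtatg

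The promoter table held 7 of the 8 hosts with 8 annotated starts, 2 of them for Gas5, and Snhg6 was not matched. The other Gas5 start and the Zfas1 start are not shown, and neither had a match on either strand. Of the 8 starts, 4 had a match on the strand of the gene and 5 on either strand, against 21.4% and 40.6% of 32851 promoters of the same length. In Gas5 the match begins at the first transcribed base of the start shown. The motif CACGTG was in 0 of the 8 promoters of 300 bases and in 7.15% of all. These matches describe letters and not sites.

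Across the series Cyld, the targeted gene, read 524 and 502 in WT and 284 and 218 in KO (limma adjusted p = 8.89e-08), and which part of it was removed is not given. Foxp3 read 2016 and 1881 in WT and 1697 and 1553 in KO and did not pass the test (adjusted p = 0.395). Among all 13956 genes tested, 3.5% were called lower and 4.79% higher at an adjusted p under 0.05 in limma. Of 8 Treg markers tested, 0 were higher and 1 was lower, Izumo1r. All 10 tested splenic macrophage markers were lower, with summed intensities of 2460 and 2215 in WT and 952 and 1155 in KO, and all 7 tested proliferation genes were higher, with sums of 2395 and 2177 in WT and 3602 and 5920 in KO. Of 3 tested B cell markers 0 were called, and of 4 tested markers of CD8 T and NK cells 1 was higher, Eomes. The measured erythroid and granulocyte markers were all under the filter on dim genes, which lay at an intensity of 77.4, and no value in the table was at 0. The part of these shifts in the results below was not tested. In bulk samples, fewer cells of a type and less RNA per cell cannot be told apart.

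Gas5 fell in the KO by its kept probe set, but not uniformly. This probe set read 1448 and 2005 on the WT arrays and 1477 and 833 on the KO arrays, 1726 ± 394 against 1155 ± 455 (mean ± SD, n = 2). The genotypes overlapped: KO replicate 1 lay just above WT replicate 1, and KO replicate 2 stood alone at 48.3% of the WT mean. On the log2 scale this was a change of -0.62 ± 0.17 (SE), with an adjusted p = 0.00584 in limma over 13956 genes. That SE is the pooled one. From a gene's own arrays alone the SE was 0.47 for Gas5 and 0.055 for Snhg5. Of all genes tested, 3.5% were called lower, 4.79% higher and 8.29% in either direction, so 1 call among 2 hosts is a count too small to set against that background. Without KO replicate 2 the log2 fold change of Gas5 was -0.21 (adjusted p = 0.601), and without WT replicate 2 it was -0.38 (adjusted p = 0.521).

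The other 3 probe sets of Gas5 did not pass the test or were not tested. The annotation lists 4 sequence records for one of them and only 1 RefSeq record for each of the rest, and it does not say which part of the gene a probe set covers. The 4-record set read 416 and 414 in WT and 406 and 342 in KO. Its KO values lay below both WT values, but by little on replicate 1, at 97.7% of the WT mean. In a fit over 16297 annotated probe sets, added after the data were seen, its log2 fold change was -0.16 with a 95% interval from -0.49 to 0.17 (adjusted p = 0.641). In that fit 3.81% of probe sets were called lower.

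A second single-record set read 236 and 198 in WT and 192 and 142 in KO, with a log2 fold change of -0.39 and an adjusted p = 0.155. The dimmest set read 76.6 and 77.3 in WT and 78.8 and 54.7 in KO, and its mean of 71.8 was under the filter. KO replicate 2 was the lowest array on all 4 probe sets, whereas KO replicate 1 lay between 85.5% and 102% of the WT mean.

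Snhg5, which carries the U50 small nucleolar RNAs, did not pass the test. It read 154 and 144 in WT and 147 and 142 in KO, and the genotypes overlapped. The KO mean was 97.2% of the WT mean. The log2 fold change was -0.04 ± 0.17 (SE) with a 95% interval from -0.37 to 0.29 (limma adjusted p = 0.926). The probe set shared by Snhg8 and Snora24 read 154 and 130 in WT and 120 and 103 in KO. Both KO values were below both WT values, which was so for 26.2% of all genes tested, and the log2 fold change of -0.34 did not pass (adjusted p = 0.230 in the fit over probe sets). This value cannot be divided between the host and the small nucleolar RNA.

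**Figure D1:**
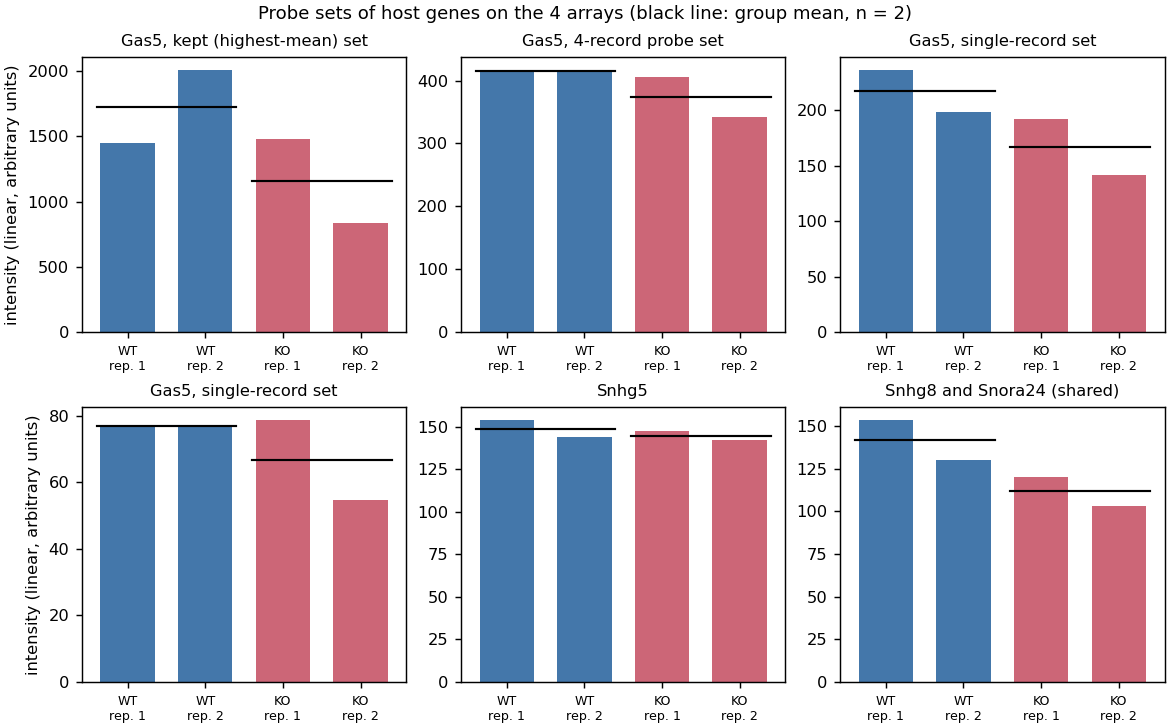
Intensity (linear scale, vertical axes starting at 0 and differing between panels) of the 6 probe sets that name a host, on 2 wild-type (blue) and 2 knockout (red) arrays, with group means as black lines. The kept Gas5 set drops to 833 on knockout replicate 2 alone, the 4-record Gas5 set lies between 342 and 416, and Snhg5 lies between 142 and 154.

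Several small nucleolar RNAs inside the hosts fell in the KO. The gene table places 29 small nucleolar RNA genes inside the 8 hosts, and 7 of them, in 5 hosts, had a tested probe set of their own. Of these 7, 4 fell and 0 rose (0 higher also at an unadjusted p under 0.05), beside 3.5% of all genes called lower. Their median log2 fold change was -0.55, against -0.02 over all genes tested, and 5 of the 7 had both KO values below both WT values, as did 26.2% of all genes tested. The family was already known to be lower in these data when the hosts were chosen, so the count describes these RNAs and is not independent evidence.

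Snord87, a box C/D RNA in Snhg6, had the largest change of the 7. It read 302 and 328 in WT and 181 and 114 in KO. Both KO arrays were well below WT, at 57.4% and 36.2% of its mean. On the log2 scale it fell by 1.13 ± 0.17 (SE), with an adjusted p = 3.98e-09 in limma, and only 0.179% of the genes tested fell further by this measure. For Snord87 leaving out any 1 array gave values from -1.46 to -0.80. Snhg6 itself had no named probe set, so host and product could not be compared. Snord87 also lies within the span of the gene Mcmdc2 in the gene table.

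Both measured RNAs of Snhg12 fell. Snora16a, of the box H/ACA class, read 301 and 309 in WT and 142 and 163 in KO, a log2 fold change of -0.996 ± 0.17 (SE, adjusted p = 3.77e-07). Snora44, of the same class, read 248 and 263 in WT and 160 and 170 in KO, a log2 fold change of -0.63 ± 0.17 (adjusted p = 0.00447). Within each genotype the replicates of both RNAs were close together, and the genotypes did not overlap. Unlike Gas5, these 2 RNAs were not at their lowest on KO replicate 2, where they stood at 53.5% and 66.3% of the WT mean. Snora44 had an adjusted p = 0.103 without WT replicate 1 and 0.191 without WT replicate 2.

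Snord47, the only RNA of Gas5 with its own tested probe set, fell with the pattern of the kept Gas5 set. It read 220 and 317 in WT and 225 and 143 in KO, a log2 fold change of -0.55 ± 0.17 (SE, adjusted p = 0.0179). As with Gas5, KO replicate 1 lay within the WT range and KO replicate 2 was low, at 53.4% of the WT mean. The adjusted p was 0.550 without KO replicate 2 and 0.648 without WT replicate 2.

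Snora73a and Snora73b in Snhg3, near-identical copies that may share probes, did not pass. Snora73a read 265 and 299 in WT and 237 and 215 in KO (log2 fold change -0.32, adjusted p = 0.281). Snora73b read 255 and 282 in WT and 235 and 204 in KO (log2 fold change -0.29, adjusted p = 0.326). In both, the KO values lay below the WT values. Snord22 in Snhg1 read 99.2 and 91.0 in WT and 95.04 and 72.6 in KO, with overlapping genotypes (log2 fold change -0.19, adjusted p = 0.567).

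**Figure D2:**
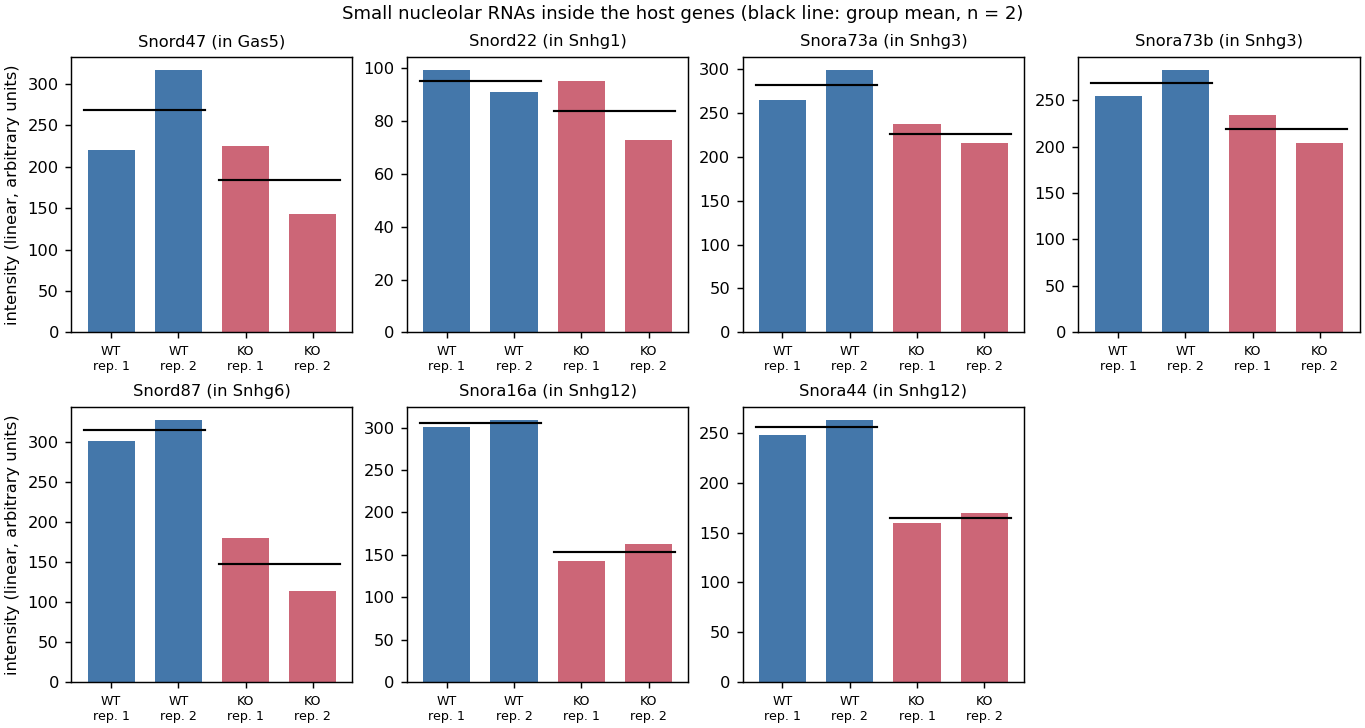
Intensity (linear scale, vertical axes starting at 0 and differing between panels) of the 7 small nucleolar RNAs inside the hosts, on 2 wild-type (blue) and 2 knockout (red) arrays, with group means as black lines. Snord87, Snora16a and Snora44 are low on both knockout arrays, whereas Snord47 is low at 143 on knockout replicate 2 and at 225 on replicate 1.

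Whether hosts fell as their small nucleolar RNAs did could be asked within 1 gene only, Gas5. The permutation test used here could not decide this, because no comparison could pass it with 2 arrays per genotype. In each of the differences below, the values of the genotypes overlapped. Snord47 minus the kept Gas5 set, on the log2 scale, was -2.71 and -2.66 on the WT arrays and -2.71 and -2.53 on the KO arrays, a difference of 0.06 between genotypes (exact permutation test, two-sided, p = 0.667). Snord47 minus the 4-record set was -0.92 and -0.39 in WT and -0.85 and -1.25 in KO, a difference of -0.40 (exact permutation p = 0.667). The kept set minus the 4-record set was 1.80 and 2.27 in WT and 1.86 and 1.28 in KO, a difference of -0.46 (exact permutation p = 0.667). With 2 arrays per genotype the smallest p that this test allows is 0.333, so its p-values do not tell whether the genotypes differed.

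The likeness was also ranked over the whole table, after the values were seen, as the Euclidean distance between mean-centred log2 values over the 4 arrays. Among 13954 genes, Snord47 was the nearest to the kept Gas5 set, at a distance of 0.147, and Rmrp, the RNA of RNase MRP, was the next at 0.210. Rmrp read 1905 and 2150 in WT and 1784 and 986 in KO, so it too was lowest on KO replicate 2. For the 4-record Gas5 set Snord47 ranked 12415th, at 0.615, and for the other 2 sets 7524th and 7241st. The distance depends on the size of the changes as well as their order, and KO replicate 2 was the lowest array for Snord47 and for all 4 Gas5 sets.

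By the same distance, the genes most like the mean of Gas5 and Snhg5 were Rab3a, Bin1, Cpeb2, Ptn and Prpf4b, at 0.0356 to 0.0480 over the 4 arrays. Bin1, for example, read 428 and 471 in WT and 421 and 310 in KO. With 4 arrays such a ranking is a description and no test.

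Across the measured hosts, the mean log2 value of the 7 small nucleolar RNAs minus that of Gas5 and Snhg5 was -1.04 and -1.09 on the WT arrays and -1.42 and -1.23 on the KO arrays. Both KO values were below both WT values, with a difference of -0.26 (exact permutation p = 0.333, the smallest possible). It was -0.16 without KO replicate 1 and -0.39 with the mean of all probe sets of a gene. Apart from Snord47 and Gas5, these RNAs and hosts belong to different genes.

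**Figure D3:**
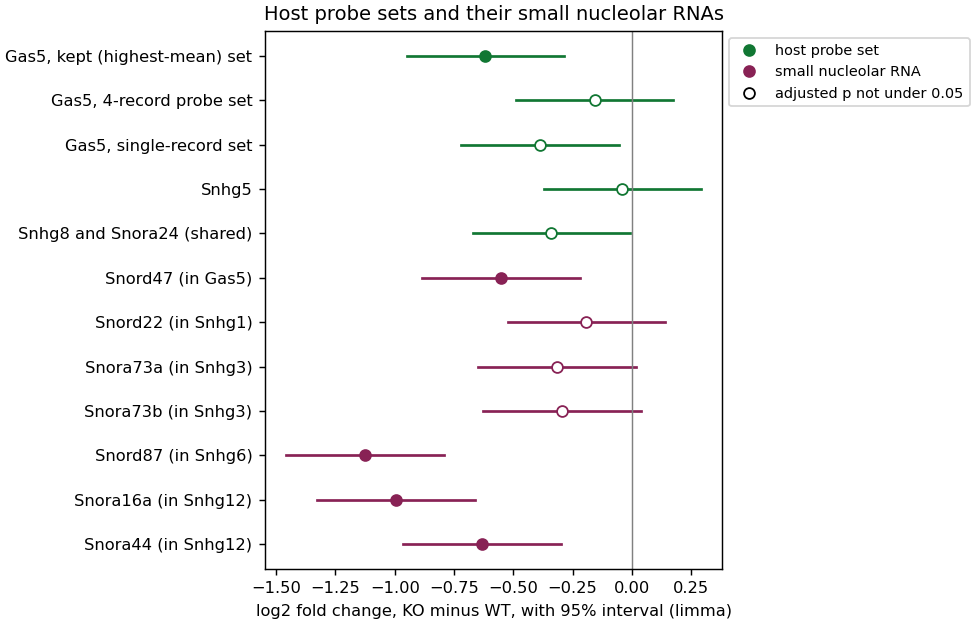
Log2 fold change (KO minus WT) with its 95% interval for 5 probe sets that name a host (green, fit over annotated probe sets) and 7 small nucleolar RNAs (purple, fit over genes), filled where the adjusted p was under 0.05. The kept Gas5 set is the only filled host, at -0.62, and Snord87, Snora16a, Snora44 and Snord47 are filled at -1.13 to -0.55.

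The wider set of small nucleolar RNAs gave more pairs with a host. Of 43 small nucleolar and Cajal body RNAs tested, 18 were lower and 0 higher, with a median log2 fold change of -0.40. The 36 outside the 8 hosts had 14 lower and a median of -0.38. Over all genes tested, 3.5% were called lower and 4.79% higher. As this family was already known to be lower in these data, the counts here are not independent evidence. By position, 22 of the 43 lay inside a gene that was itself tested, 21 genes in all. These pairs were taken after the data were seen, and the gene table gives no strand, so some of the RNAs may lie antisense to the gene. Of the 22 RNAs, 7 were lower and 0 higher. Of the 7 genes around those 7 RNAs, 1 was lower, Gas5, and of all 21 genes 1 was lower.

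In 18 of the 22 pairs the log2 fold change of the small nucleolar RNA was below that of the gene around it, and the median difference over the 22 was -0.14. The median was -0.36 over the RNAs and -0.28 over the genes. As these RNAs were already known to be lower in these data, the count of 18 is not independent evidence either. The widest gap was that of Snord57, a box C/D RNA in Nop56, which encodes a core protein of box C/D particles. Snord57 read 701 and 967 in WT and 437 and 311 in KO (log2 fold change -1.16, adjusted p = 1.39e-09), while Nop56 had a log2 fold change of -0.40 (adjusted p = 0.143). Snora52, the H/ACA RNA in the ribosomal protein gene Rplp2, read 2418 and 3146 in WT and 1965 and 1742 in KO (log2 fold change -0.58, adjusted p = 0.0122), and Rplp2 had a log2 fold change of -0.07 (adjusted p = 0.867). By the kept Gas5 set (-0.62), Snord47 (-0.55) was the only called RNA whose fall was smaller than that of its gene. The other tested Gas5 sets fell less than Snord47, with log2 fold changes of -0.16 and -0.39. This exception therefore depends on the probe set.

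**Figure D4:**
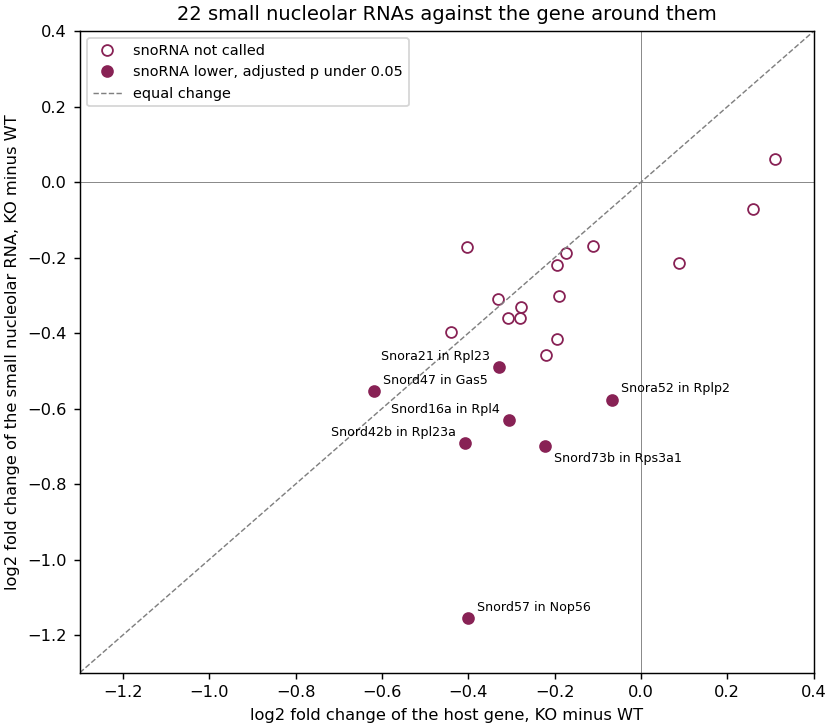
Log2 fold change (KO minus WT) of 22 small nucleolar RNAs (vertical axis) against that of the tested gene around each (horizontal axis), with a dashed line of equal change. Of the 22 points 18 lie below the line, and of the 7 filled points, RNAs called lower, only Snord47 in Gas5 lies above it. Gas5 is placed by its kept probe set, and its other tested sets fell less than Snord47.

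Other noncoding hosts showed no call. Of 14 listed, 5 were tested (Snhg11, Snhg15, Snhg16, Snhg17 and Dancr). Of these, 0 were higher and 0 lower in limma (0 also at an unadjusted p under 0.05). Of all genes tested, 4.79% were called higher and 3.5% lower, so a list of 5 is too short to set against those shares. The median log2 fold change was -0.12. That median was -0.29 with the mean of all probe sets of a gene, -0.22 without KO replicate 1, -0.19 without WT replicate 1, -0.061 without KO replicate 2 and -0.050 without WT replicate 2. Snhg15, the brightest by its probe set, read 166 and 179 in WT and 165 and 163 in KO. Snhg16 read 114 and 96.3 in WT and 92.5 and 75.7 in KO (log2 fold change -0.32, adjusted p = 0.266). Snhg17, like Gas5, varied with the probe set. Its kept set had a log2 fold change of -0.12, and its other 2 sets had -0.42 and -0.45 (adjusted p = 0.112 and 0.0802 in the fit over probe sets), the last reading 174 and 170 in WT and 122 and 129 in KO.

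Protein-coding hosts had mostly negative log2 fold changes and 1 call. Of 21 tested, 1 was lower (4.76%, beside 3.5% of all genes tested) and 0 higher. A negative log2 fold change was seen in 19, and in 7438 of all 13956 genes. The median was -0.32, -0.20 with quantile normalization and -0.22 without KO replicate 2. The lower one was Dkc1, the pseudouridine synthase of H/ACA particles and itself a host, which read 389 and 344 in WT and 252 and 265 in KO (log2 fold change -0.50, adjusted p = 0.0414). Dkc1 is shared with the list of small nucleolar RNA proteins and assembly factors. There 1 of 16 tested was lower (6.25%), 0 were higher and the median was -0.30. A single call in either list is too few to set against the share of all genes. Snu13, a box C/D protein and the brightest of that list, read 1301 and 1305 in WT and 1504 and 1737 in KO and did not pass (adjusted p = 0.291). With an intensity trend in limma's variance 11 of the 21 protein-coding hosts were lower, beside 4.12% of all genes in that fit. The host list shares ribosomal protein genes, such as Rpl10, and Eef2 with the lists of the next paragraph, so their medians and counts are not separate results. The count was 0, with Dkc1 not called, with median centring, with the replicate number as a block, without pooled variances, and without WT replicate 1, WT replicate 2 or KO replicate 2. The assembly list likewise had 0 lower under these settings, except without KO replicate 2, where 1 gene was lower, and it had 3 lower with the trend.

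Ribosomal protein genes and translation factors, known as background for a pyrimidine start that was not searched here, gave 0 calls. Of 58 tested cytosolic ribosomal protein genes 0 were called in either direction, 21 had an unadjusted p under 0.05, 57 had a negative log2 fold change (7438 of all 13956 genes did) and the median was -0.31, or -0.20 with quantile normalization. With an intensity trend 31 of them were lower, beside the same 4.12% of all genes, and without KO replicate 1 4 were lower and 1 higher. Rps6 read 4793 and 4793 in WT and 4514 and 3940 in KO. Of 15 translation factors 0 were called (1 at an unadjusted p under 0.05), with a median of -0.17 (-0.10 with quantile normalization, -0.11 without KO replicate 2), and 3 were lower with an intensity trend. Eef1a1 read 5618 and 5761 in WT and 5579 and 5064 in KO. In the main fit 3.5% of all genes tested were called lower and 4.79% higher. Their share at an unadjusted p under 0.05 is not given. Counts at that cut, here and in the next paragraph, therefore have no background beside them.

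Decay factors did not pass the test. Of all genes tested 3.5% were called lower and 4.79% higher, so 0 calls in lists this short cannot be set against those shares. Of 12 nonsense-mediated decay genes tested 0 were called in limma (2 at an unadjusted p under 0.05), with a median log2 fold change of 0.0077 that was -0.093 without KO replicate 2 and -0.078 without WT replicate 2. Smg1, the kinase that phosphorylates Upf1, read 882 and 902 in WT and 826 and 637 in KO (adjusted p = 0.319). Of 16 exonuclease and exosome genes 0 were called (0 also at an unadjusted p under 0.05), with a median of -0.012. Exosc10, a nuclear exosome subunit that trims small nucleolar RNAs, read 1675 and 1585 in WT and 1312 and 1296 in KO (log2 fold change -0.32, adjusted p = 0.273).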

How the data were processed

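Per the labels' protocols, total RNA of sorted cells was turned into biotinylated cRNA for Affymetrix arrays. The authors deposited linear intensities, from 26.6 to 7205, with array medians of 99.0 to 105. Their summarisation and scaling are not given in the sources used here. Probe sets were named by a platform annotation: of 35557, 21789 had 1 symbol and 1621 several. Each gene was represented by its probe set of highest mean. Those whose mean log2(intensity + 1) exceeded the 30th percentile were tested, 13956 in all, with limma 3.58.1 in R 4.3.3 (lmFit, eBayes, Benjamini-Hochberg, threshold 0.05). The fit was tested on simulated data. Fold changes are on the log2(intensity + 1) scale, which understates those of dim genes slightly. For Snord22 the value was -0.192, and -0.194 without the added 1. Small nucleolar RNAs were assigned to hosts by a written list and by position inside the host in a RefSeq gene table of GRCm38.p6, which gives no strand. Permutation tests used scipy 1.17.1. The members and lists were chosen with earlier results of these data known.

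Named were all hosts, their tested small nucleolar RNAs, and in other lists up to 3 members past the threshold with the largest change and the brightest member. Exceptions named after their values were seen are Rmrp, Snhg16, the Snhg17 probe sets and the pairs of RNA and surrounding gene. Alternatives covered the filter, scaling, pseudocount, variance model, probe set choice, replicate block and each array left out. Precision is limited by having 2 arrays per group.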

Additional observations from a re-analysis of the deposited data

How the results depend on the processing

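All genes share 1 pooled variance in the fit. Without pooling limma's fit called 0 genes higher and 0 lower (1813 at an unadjusted p under 0.05), 0 hosts and 0 of the 7 small nucleolar RNAs, and Gas5 at -0.62 had an adjusted p = 0.682. Gas5 was also not called with the mean of its probe sets (-0.35, adjusted p = 0.218, 0 hosts lower), with its 4-record set (-0.16) or with the second single-record set (-0.39). The mean of probe sets moved the difference between small nucleolar RNAs and hosts from -0.26 to -0.39. Leaving out 1 array gave -0.35 to -0.16 for it.

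Leaving out each array gave 254 to 919 genes higher and 118 to 767 lower, 0 to 1 hosts lower, 2 to 4 of the 7 small nucleolar RNAs lower (2 without WT replicate 2) with a median of -0.67 to -0.25, Gas5 at -1.03 to -0.21, Snhg5 at -0.089 to 0.0095, Snord22 at -0.38 to 2.64e-05, the exonuclease median at -0.11 to 0.018 and the nonsense-mediated decay median at -0.093 to 0.088. The exonuclease median was 0.013 with median centring and 0.0037 with quantile normalization. The 18 lower small nucleolar and Cajal body RNAs were 6 and 7 without WT replicates 1 and 2. The causes were not tested.

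With the replicate number as a block Gas5 kept its call (-0.62, adjusted p = 0.0105), and 4 of the 7 small nucleolar RNAs were lower. Same-numbered samples did not deviate together (r = -0.092 across genes). With 2 arrays per group this cannot settle whether the numbers pair the samples. The block removed the 1 call, Dkc1, from 2 lists. Apart from the settings named above in which Gas5 was not called, every alternative on all 4 arrays kept it called lower. With 1 array left out, Gas5 fell by less without KO replicate 2 (-0.21) and without WT replicate 2 (-0.38). Snhg5 was not called in any alternative.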
